A study of Mus musculus with 6 samples.

Results

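The immediate early genes of neurons were examined in the postnatal brains of male mice that ectopically expressed human SRY. The set held 10 genes (Fos, Fosb, Junb, Egr1, Egr2, Arc, Nr4a1, Ier2, Dusp1 and Npas4), and its members were all probes of the array table listed under one of these symbols. All 10 genes were among the 18138 symbols of the array, with 11 of its 25697 probes, because Npas4 had 2 probes and every other gene 1. A probe had to be detected above background on 3 or more of the 6 arrays to enter the test, which kept 9 probes of 8 genes among 14215 tested probes. Nr4a1 and Ier2 were not detected on any array.

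Immediate early genes are switched on within minutes of a stimulus, without new protein synthesis, from promoters that are held ready for transcription. In neurons the stimulus is synaptic activity. Calcium entry and the MAP kinase cascade activate transcription factors already present, among them CREB and SRF, and the genes they induce encode a second wave of transcription factors, a synaptic effector (Arc) and phosphatases that end the signal (such as Dusp1). Their RNA is short-lived, so its level at the time of dissection reflects recent events in the tissue, which include stress and handling as well as neuronal firing.

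Whole brains were taken at postnatal day 6 from male FVB mice and hybridized to Illumina MouseRef-8 bead arrays, 3 for each genotype. Both genotypes carried the Signalox-hSRY transgene, a single copy of which sits at one fixed locus in one line and in which the CAG promoter, active in nearly all cell types, first drives the red fluorescent protein DsRed2. In hSRY-OFF mice the transgene was not recombined. In hSRY-ON mice Cre recombinase, passed on by the oocyte of a Ddx4-Cre mother, had removed DsRed2 in the single-cell embryo and placed human SRY and EGFP behind the promoter, and the hSRY-ON mice used for arrays did not carry Ddx4-Cre themselves. The sources used here do not state the litters or the order of dissection. By the paper's account, Cre from the oocyte recombines the transgene whether or not the pup inherits Ddx4-Cre. Unrecombined hSRY-OFF mice would then come from other mothers than hSRY-ON mice, so genotype cannot be told apart from litter or mother. The level of the transgene was not analysed here. Of the neuron markers examined, Stmn2, Map2, Syt1, Tubb3, Nefm and Elavl3 were detected on all 6 arrays, and the probes of Snap25 and Nefl on none. The median signal intensity was 200.2 to 219.8 per array, and 13816 to 14377 probes were detected per array.

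No immediate early gene probe passed the test between genotypes. With limma and Benjamini-Hochberg adjustment over all 14215 probes, 0 of 9 tested probes had an adjusted p under 0.05, where 2.19% of all tested probes did, and 2 of 9 had an unadjusted p under 0.05, where 20.9% of all did. Among the 9 probes, 6 were higher and 3 lower in hSRY-ON on average, with a median log2 fold change (hSRY-ON minus hSRY-OFF, here and below) of 0.17 against 0.0048 over all tested probes. The 3 values of hSRY-ON lay wholly below those of hSRY-OFF for 2 probes, of Arc and of Npas4, and wholly above for 0. Of all tested probes, 14.2% had hSRY-ON wholly below hSRY-OFF, and 27.7% had groups that did not overlap in one direction or the other. With 9 probes, 0 or 2 of them is close to what these shares give, and nothing particular to the set is read from the counts. The calls over all probes rested on the full set of arrays, since 0 or 1 probe was called when any array other than hSRY-ON array 3 was left out, and 417 without that array. Since no source states that samples of 1 genotype came from separate litters, p-values measure the spread between these samples only.

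**Figure D1:**
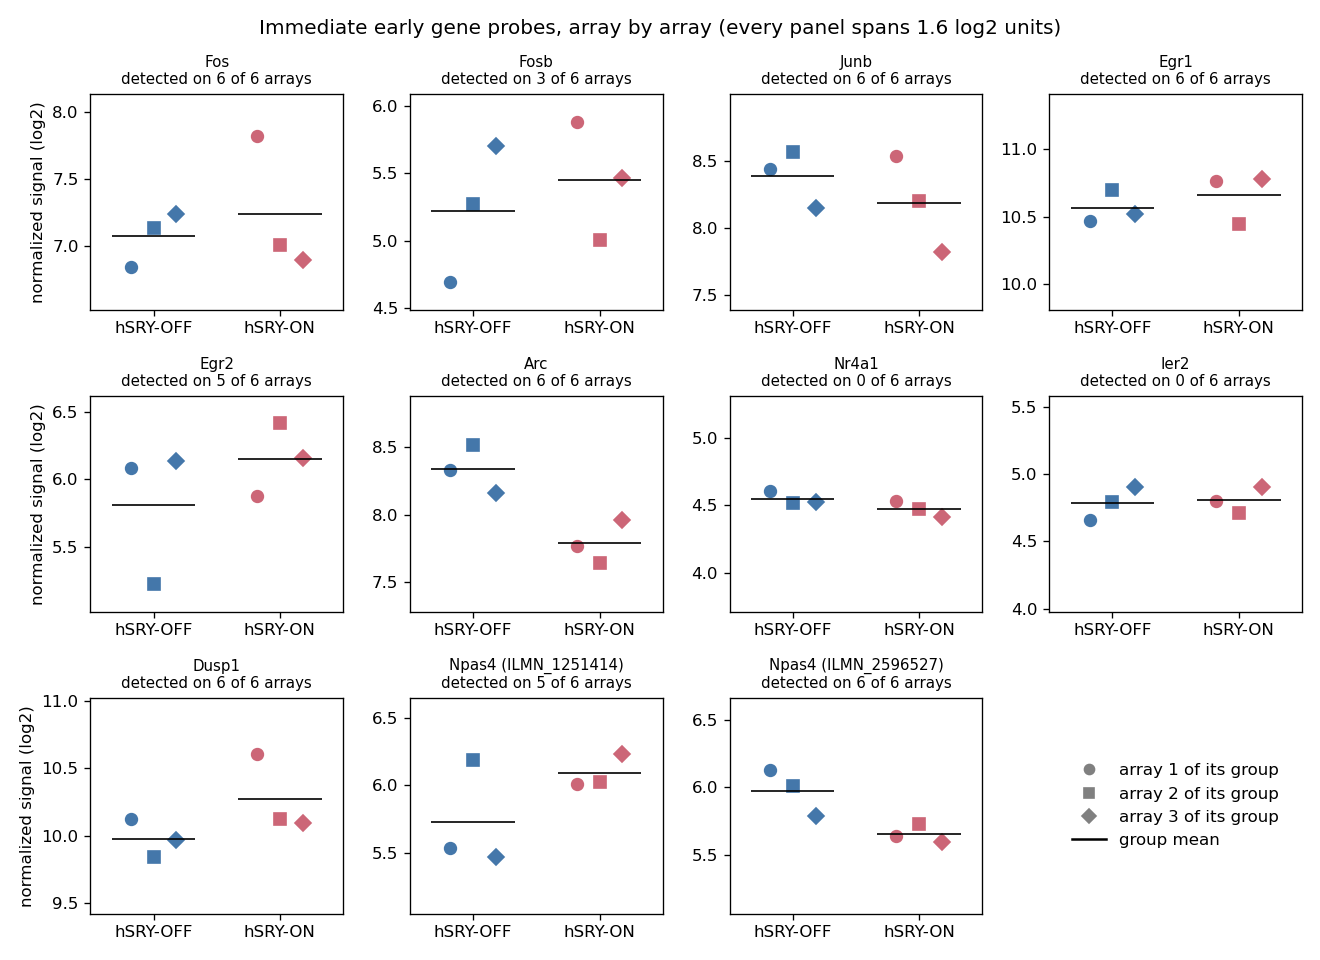
Normalized log2 signal (vertical axis) of the 11 probes on each of the 6 arrays, with hSRY-OFF in blue, hSRY-ON in red, array number by symbol and the group mean as a line. Arc separates the genotypes, with all hSRY-ON arrays below all hSRY-OFF arrays, while Fos, Fosb and Dusp1 are highest on hSRY-ON array 1 and overlap otherwise.

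Arc, which encodes a cytoskeleton-associated protein of dendrites that promotes the removal of AMPA receptors from synapses, showed the largest difference of the set. Its deposited signal intensity was 519.2, 510.1 and 423.0 on arrays 1 to 3 of hSRY-OFF, compared with 373.9, 337.0 and 386.1 on those of hSRY-ON. Every hSRY-ON array was dimmer than the dimmest hSRY-OFF array. After background correction and normalization the log2 signals were 8.33, 8.52 and 8.16 in hSRY-OFF and 7.77, 7.64 and 7.96 in hSRY-ON, so the groups did not overlap on this scale either. The means were 8.34 ± 0.18 in hSRY-OFF and 7.79 ± 0.16 in hSRY-ON (mean ± SD, n = 3 arrays each, as for all means below). The hSRY-ON level was 0.685 times that of hSRY-OFF, a log2 fold change of -0.55 with an SE of 0.13 and a 95% interval of -0.84 to -0.25. The adjusted p from limma was 0.0725, above the threshold. Arc passed in 4 of 15 alternative analyses and was lower in hSRY-ON in all 15, with adjusted p of 0.00924 to 0.193.

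Since Arc is transcribed mainly in excitatory forebrain neurons, markers of these cells were read beside it. In bulk RNA, fewer cells of a type and less RNA per cell cannot be told apart. Of 6 such markers 5 were tested, 0 passed (2 at an unadjusted p under 0.05 with limma, 1 in each direction), 2 were higher and 3 lower, and their median log2 fold change was -0.21. Their mean log2 signal was 9.61 to 9.71 on the hSRY-OFF arrays and 9.49 to 9.50 on the hSRY-ON arrays. Slc17a7, the vesicular glutamate transporter of these neurons, was at 11.84 ± 0.12 in hSRY-OFF and 11.21 ± 0.23 in hSRY-ON (adjusted p 0.0596, limma), without overlap. Neurod2, a transcription factor of the same neurons, lay the other way, also without overlap, at 7.47 ± 0.15 and 7.83 ± 0.16 (adjusted p 0.153, limma). Tbr1, a factor of deep cortical layers, was at 10.57 ± 0.10 and 10.59 ± 0.18. For the 6 general neuron markers tested, the median was 0.0093. Whether the amount of excitatory neuron RNA had a part in the level of Arc was not tested.

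The AP-1 genes Fos, Fosb and Junb encode leucine zipper proteins that bind DNA as Fos-Jun dimers. Fos had log2 signals of 6.85, 7.14 and 7.24 on arrays 1 to 3 of hSRY-OFF, and of 7.82, 7.01 and 6.90 in the same order for hSRY-ON. hSRY-ON array 1 alone was high, and the other hSRY-ON arrays lay within the range of hSRY-OFF. The log2 fold change was 0.17 (SE 0.24, 95% interval -0.41 to 0.74, limma adjusted p 0.742), and without hSRY-ON array 1 its sign turned, to -0.12. The SD of Fos was 0.50 in hSRY-ON against a median of 0.13 over all tested probes in that genotype, larger than that of 98.3% of them.

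Junb, an AP-1 partner that can also restrain Jun, had log2 signals of 8.44, 8.57 and 8.15 in hSRY-OFF and of 8.54, 8.20 and 7.82 in hSRY-ON. The groups overlapped, with a log2 fold change of -0.20 (SE 0.19, 95% interval -0.65 to 0.26, limma adjusted p 0.602). Fosb was close to background. It was detected on 1 hSRY-OFF array and 2 hSRY-ON arrays, with deposited intensities of 169.7, 185.7 and 199.1 in hSRY-OFF and 211.8, 171.0 and 191.9 in hSRY-ON, which overlap. Its interval of -0.47 to 0.93 around a log2 fold change of 0.23 was the widest of the set, and the sign turned, to -0.04, without hSRY-OFF array 1.

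The zinc finger factors Egr1 and Egr2 bind GC-rich promoter elements, and Egr2 is known also for hindbrain patterning and for myelination by Schwann cells. Egr1 was far above background on every array, at intensities of 1461.9 to 1922.9. Its log2 signals were 10.46, 10.70 and 10.52 in hSRY-OFF and 10.76, 10.44 and 10.78 in hSRY-ON, which overlap. The log2 fold change was 0.10 (SE 0.12, limma adjusted p 0.677), and the 95% interval of -0.18 to 0.38 corresponds to 0.882-fold to 1.30-fold, which leaves out changes of the size seen for Arc in either direction. Egr2 had log2 signals of 6.08, 5.22 and 6.14 in hSRY-OFF, where array 2 was not above background, and of 5.88, 6.42 and 6.16 in hSRY-ON. Its log2 fold change was 0.34 (SE 0.26, limma adjusted p 0.504).

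Dusp1 encodes a phosphatase that removes phosphate from the MAP kinases, and it is induced by glucocorticoids as well as by activity and stress. Its signal intensities were 1413.6, 1061.4 and 1109.4 in hSRY-OFF and 1738.4, 1211.8 and 1190.9 in hSRY-ON. The brightest array was hSRY-ON array 1, and hSRY-OFF array 1 was brighter than both other hSRY-ON arrays. On the normalized log2 scale the means were 9.98 ± 0.14 and 10.28 ± 0.28, with a log2 fold change of 0.30 (SE 0.15, 95% interval -0.07 to 0.66, limma adjusted p 0.320). Without hSRY-ON array 1 the log2 fold change was 0.13.

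Npas4, a bHLH-PAS factor induced selectively by calcium entry in neurons, was read by 2 probes that disagreed. Probe ILMN_2596527 had log2 signals of 6.13, 6.01 and 5.79 in hSRY-OFF and 5.64, 5.73 and 5.60 in hSRY-ON, with a log2 fold change of -0.32 (SE 0.11, limma adjusted p 0.156, unadjusted p 0.0199). Its groups did not overlap after normalization, but they did in the deposited intensities, at 202.2 to 234.7 and 196.1 to 202.8. Probe ILMN_1251414 lay the other way, at 5.54, 6.19 and 5.47 in hSRY-OFF and 6.01, 6.03 and 6.23 in hSRY-ON, with a log2 fold change of 0.36 (SE 0.19, limma adjusted p 0.341). Both probes were close to background, with detection p-values of up to 0.0363 and 0.0539, and Npas4 is left without a direction.

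Nr4a1, an orphan nuclear receptor, and Ier2, a small nuclear protein, were not detected above background on any array. The detection p-value, which ranks a probe's brightness among the negative controls, was 0.723 to 0.995 for Nr4a1 and 0.251 to 0.615 for Ier2. Neither gene is given a fold change.

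**Figure D2:**
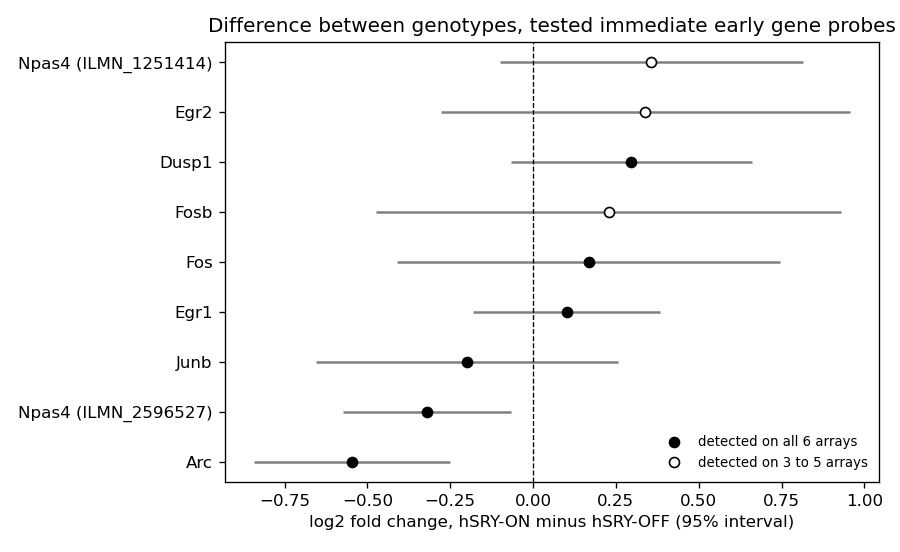
Log2 fold change (hSRY-ON minus hSRY-OFF, horizontal axis) of the 9 tested immediate early gene probes with 95% intervals from limma, ordered by size. Filled points were detected on all 6 arrays, and the intervals of Arc (-0.84 to -0.25) and of 1 Npas4 probe (-0.57 to -0.07) do not reach 0 before adjustment.

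Most of these genes had a wider spread between arrays of 1 genotype than the median tested probe. All 9 tested probes had a larger SD in hSRY-OFF than the median of all tested probes (0.11), and 7 of 9 had a larger SD in hSRY-ON than the median there (0.13). These medians cover probes of all levels, and the log2 scale spreads out dim probes. The largest SDs in hSRY-OFF were of Fosb and Egr2, close to background, at 0.50 and 0.51. Egr1 and Dusp1, the brightest members, had SDs in hSRY-OFF larger than those of 55.7% and 63.3% of tested probes. hSRY-ON array 1 was the highest of the 6 arrays for Fos, Fosb and Dusp1, that is, for 3 of 8 tested genes with 1 probe per gene. The same array was the highest for 4 of 11 other inducible transcription factors, as many as hSRY-ON array 2, and for 10 of 17 inducible effectors and feedback inhibitors, such as Ier3, and for 20.4% of all tested probes. It was also the highest for 7 of 9 glucocorticoid-induced genes, but for 1 of 9 late activity genes and 4 of 20 upstream genes, where hSRY-ON array 2 was the highest for 3 and 6.

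Promoter sequences are shown for Fos, Junb and Dusp1, 3 members detected on every array, and for Egr4, the called relative described below, because CREB acts on immediate early genes through short elements close to their start sites. RefSeq promoter windows (GRCm38.p6) were matched for 7 of the 10 members, and none was matched for Arc, Egr1 or Ier2. The 250 bases before the start site are printed from 5′ to 3′ on the coding strand, with capitals for the core of the CREB element, TGACG or its reverse complement CGTCA, which is also part of the full element TGACGTCA. The windows are chr12:85473640-85473889 on the plus strand for Fos, chr8:84978749-84978998 on the minus strand for Junb, chr17:26508473-26508722 on the minus strand for Dusp1 and chr6:85513590-85513839 on the minus strand for Egr4.
Fos: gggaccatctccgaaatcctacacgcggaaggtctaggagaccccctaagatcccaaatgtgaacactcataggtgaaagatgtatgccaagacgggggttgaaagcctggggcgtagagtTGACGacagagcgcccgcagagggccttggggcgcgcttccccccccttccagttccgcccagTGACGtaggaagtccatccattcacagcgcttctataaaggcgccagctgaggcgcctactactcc
Junb: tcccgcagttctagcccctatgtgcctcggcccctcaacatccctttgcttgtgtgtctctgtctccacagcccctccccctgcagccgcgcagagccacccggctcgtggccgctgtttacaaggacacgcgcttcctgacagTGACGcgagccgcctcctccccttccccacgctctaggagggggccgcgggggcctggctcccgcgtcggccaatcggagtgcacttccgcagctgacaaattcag
Dusp1: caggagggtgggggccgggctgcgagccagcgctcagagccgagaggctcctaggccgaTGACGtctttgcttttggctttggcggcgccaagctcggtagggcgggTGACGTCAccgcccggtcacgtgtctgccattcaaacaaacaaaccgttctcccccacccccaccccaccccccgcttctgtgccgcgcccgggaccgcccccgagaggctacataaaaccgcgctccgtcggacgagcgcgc
Egr4: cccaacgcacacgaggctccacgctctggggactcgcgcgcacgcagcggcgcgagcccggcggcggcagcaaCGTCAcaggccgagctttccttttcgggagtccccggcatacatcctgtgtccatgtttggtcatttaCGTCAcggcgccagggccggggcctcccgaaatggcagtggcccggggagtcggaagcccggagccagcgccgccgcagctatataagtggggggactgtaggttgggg

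The core began at -129 and -66 from the start site in Fos, at -106 in Junb, at -191, -143 and -140 in Dusp1 and at -177 and -109 in Egr4. On either strand it was found in 6 of the 7 matched members and in 17.9% of the windows of 27025 genes. The full element was found in 1 of the 7, Dusp1, and in 1.62% of all windows. No match was found in the 7 windows for the SRF element known as the CArG box (1.40% of all windows), for the AP-1 site TGANTCA (6.87%) or for AACAAT, a core bound by SRY and SOX proteins (9.65%), which says only that these letters are not in these 250 bases. Among the genes whose promoters are printed, the log2 fold change was -0.58 for Egr4, 0.30 for Dusp1, 0.17 for Fos and -0.20 for Junb, and Egr4 alone passed the test.

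Other inducible transcription factors were taken from a list of 20 genes that are induced along with the members, of which 15 were on the array and 11 were tested. Egr4, the fourth factor of the Egr family, was the only one called, and it fell in hSRY-ON. Its log2 signals were 6.63, 6.75 and 6.76 for hSRY-OFF, in array order, and 6.16, 6.02 and 6.24 for hSRY-ON, with every hSRY-ON array below every hSRY-OFF array. The log2 fold change was -0.58 (SE 0.09, limma adjusted p 0.0348), close to that of Arc. Called probes that were lower in hSRY-ON made up 1.32% of all tested probes. The call was lost in 8 of 15 alternative analyses (adjusted p of 0.0131 to 0.118 over all 15), which included leaving out any array except hSRY-ON array 3, while the direction held in all 15.

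In this list 7 genes were higher and 4 lower, with a median log2 fold change of 0.19. Egr3, like Egr4 a factor downstream of activity in neurons, was at 5.59 ± 0.17 in hSRY-OFF and 5.37 ± 0.30 in hSRY-ON (limma adjusted p 0.494). Per1, a clock gene that is also induced by activity and by glucocorticoids, was at 9.23 ± 0.17 and 9.83 ± 0.23, with no overlap between genotypes and a log2 fold change of 0.60 (limma adjusted p 0.0780). Cebpb was at 8.87 ± 0.06 and 9.27 ± 0.19 (limma adjusted p 0.110), again with no overlap. Klf6, at 11.12 ± 0.25 and 11.41 ± 0.07, and Jun, the main AP-1 partner of Fos, at 9.10 ± 0.06 and 9.25 ± 0.19, had overlapping groups (limma adjusted p 0.261 and 0.481).

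Inducible effectors and feedback inhibitors, a list of 23 genes of which 17 were tested, had 0 called genes (2 at an unadjusted p under 0.05 with limma), 12 higher and 5 lower, and a median log2 fold change of 0.12. Dusp6, a phosphatase that restrains MAP kinase signalling, was at 11.53 ± 0.08 in hSRY-OFF and 11.59 ± 0.05 in hSRY-ON. Gadd45g, a stress sensor, was at 10.63 ± 0.01 and 10.58 ± 0.09. The kinase Sgk1 was at 11.89 ± 0.06 and 12.15 ± 0.25, and Ctgf (current symbol Ccn2), a matrix protein and SRF target, at 10.74 ± 0.02 and 10.97 ± 0.23. None of these 4 differences passed, with limma adjusted p of 0.323 to 0.766. The 2 genes at an unadjusted p under 0.05 lay in opposite directions, each without overlap between genotypes. Cyr61 (current symbol Ccn1), a secreted matrix protein, was at 5.07 ± 0.28 and 5.98 ± 0.49, detected on 3 arrays (limma adjusted p 0.109), and Socs3, an inhibitor of cytokine signalling, was at 6.97 ± 0.07 and 6.70 ± 0.14 (limma adjusted p 0.177).

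Late activity genes, which are induced in neurons after the first wave and encode mostly secreted or synaptic proteins, were a list of 10, of which 9 were tested. Of these, 0 were called (0 at an unadjusted p under 0.05 with limma), 6 were higher and 3 lower, and the median log2 fold change was 0.15. The secretory granule proteins Scg2 and Vgf were at 12.47 ± 0.10 and 11.42 ± 0.02 in hSRY-OFF and at 12.68 ± 0.09 and 11.47 ± 0.11 in hSRY-ON. Nrn1, a surface protein that supports synapse growth, was at 12.09 ± 0.04 and 11.96 ± 0.08, and the vesicle protein Syt4 was at 11.04 ± 0.08 and 11.19 ± 0.15. The limma adjusted p of these 4 genes was 0.241 to 0.772.

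The kinases and transcription factors upstream of the immediate early genes were a list of 30, of which 20 were tested. Here too 0 were called (3 at an unadjusted p under 0.05 with limma), 9 were higher and 11 lower, and the median log2 fold change was -0.05. Map2k2, a kinase of the MAP kinase cascade, was at 12.35 ± 0.01 in hSRY-OFF and 12.19 ± 0.07 in hSRY-ON, without overlap (limma adjusted p 0.282). Mef2c, a calcium-dependent factor of cortical neurons, was at 12.39 ± 0.12 and 12.49 ± 0.04, and Atf2, a CREB relative, at 11.85 ± 0.10 and 11.76 ± 0.10. These are RNA levels, and the activity of the kinases was not measured.

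**Figure D3:**
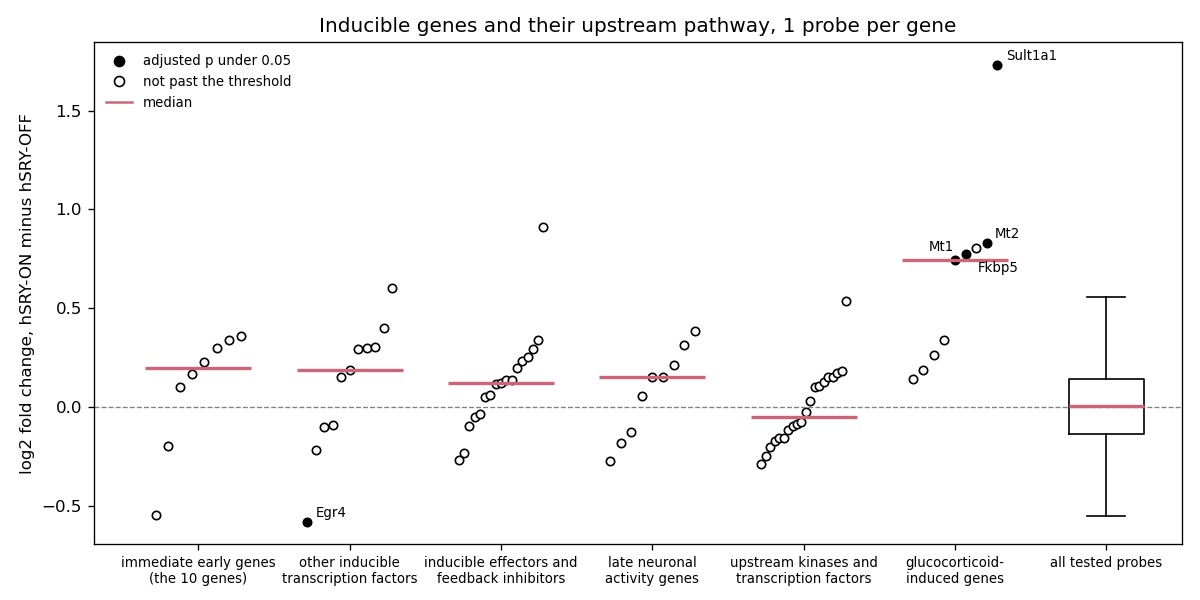
Log2 fold change (hSRY-ON minus hSRY-OFF, vertical axis) of each tested gene of 6 lists, with 1 probe per gene, the list's median as a red line, called genes filled and named, and a box of the quartiles for all tested probes with whiskers reaching at most 1.5 times the box height. Egr4 is the single called gene in the 5 lists of inducible genes and their pathway, while 4 of 9 glucocorticoid-induced genes are called, all upward.

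Glucocorticoid-induced genes were set beside the members because Dusp1, Per1 and Sgk1 respond to these hormones. Of 9 tested genes 4 rose (0.865% of all tested probes did), namely Sult1a1, Fkbp5, Mt1 and Mt2, at log2 fold changes of 0.75 to 1.73, and all 9 were higher in hSRY-ON, with a median of 0.75. The count of called probes was 0 or 1 without any one array other than hSRY-ON array 3 and 5 without that array. Dusp1 itself, at 0.30, overlapped between genotypes. This list was chosen with earlier results of these arrays known, and whether the rise of its genes had a part in the level of Dusp1 was not tested.

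Markers of other cell types that can express immediate early genes were read as whole lists. Of 7 tested endothelial markers 0 were called (5 at an unadjusted p under 0.05 with limma), 2 were higher and 5 lower, with mean log2 signals of 8.86 to 8.94 in hSRY-OFF and 8.60 to 8.80 in hSRY-ON. Of 6 tested microglia markers 0 were called (1 at an unadjusted p under 0.05), 4 were higher, and the means were 7.97 to 8.21 and 8.18 to 8.31. Of 6 tested astrocyte markers, 2 fell (Gfap and Aqp4, against 1.32% of all tested probes), 4 were lower and 2 higher, with mean log2 signals of 11.76 to 11.83 and 11.47 to 11.50. Among those higher, Aldoc was at 13.07 ± 0.02 and 13.35 ± 0.07, without overlap (limma adjusted p 0.105). Of 5 tested oligodendrocyte markers, 1 fell (Mobp) and all 5 were lower (4 at an unadjusted p under 0.05), with means of 11.49 to 11.93 and 10.92 to 11.09. Of 4 choroid plexus markers 1 rose (Aqp1, against 0.865% of all tested probes) and all 4 were higher (3 at an unadjusted p under 0.05), with means of 8.50 to 8.67 and 8.96 to 9.25. Meningeal fibroblast markers, 3 of which were tested, had 0 called and 3 lower (2 at an unadjusted p under 0.05), at means of 9.61 to 9.73 and 8.64 to 9.35. The erythroid list (3 tested) and the granulocyte list (2 tested) had 0 called and 0 at an unadjusted p under 0.05. Their means were 9.76 to 10.27 and 9.75 to 10.07 for the erythroid list and 6.14 to 6.67 and 6.33 to 7.91 for the granulocyte list. On hSRY-ON array 3, S100a8 was at a log2 signal of 9.77 against 6.52 to 7.41 on the other arrays. Ltf, detected on 2 arrays and not tested, was at 8.57 against 4.92 to 5.77. Camp, the other tested granulocyte marker, did not stand apart on that array, at 6.06 against 5.54 to 6.17. Without that array Arc was at a log2 fold change of -0.63 and Fos at 0.34. The 1 skeletal muscle marker tested, Acta1, rose by 0.43 on the log2 scale. The part of these cell types in the levels of the members was not tested.

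The probes whose pattern over the 6 arrays was most like the mean of the 8 tested genes (1 probe per gene, each scaled to its own mean and SD) were those of Ankrd13d, Slc25a12 and Serbp1, with log2 fold changes of 0.06, 0.10 and 0.04 and limma adjusted p of 0.738, 0.599 and 0.829. They were the closest of 14215 probes by Pearson correlation and are named as a description. All of them were highest on hSRY-ON array 1, as was the mean of the members.

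**Figure D4:**
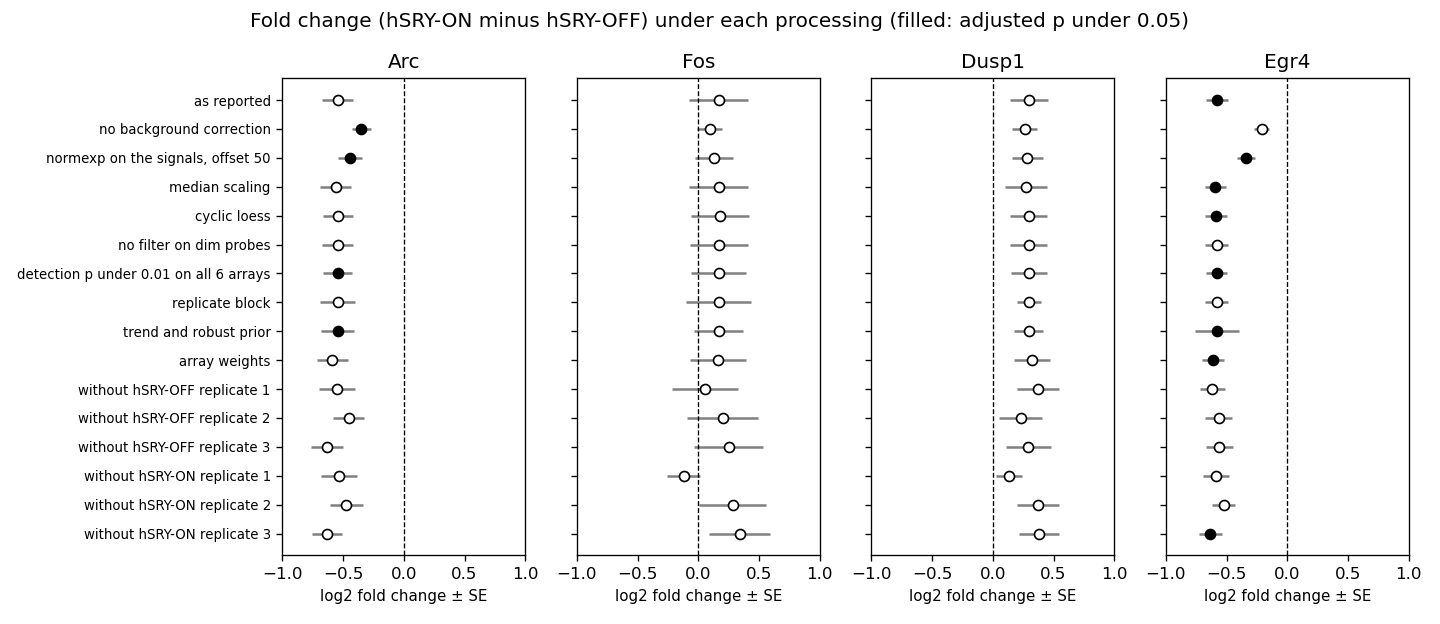
Log2 fold change ± SE (horizontal axis, hSRY-ON minus hSRY-OFF) of Arc, Fos, Dusp1 and Egr4 as reported and under 15 alternative analyses (rows), filled where the adjusted p was under 0.05. Arc and Egr4 stay below 0 throughout and are filled in some rows only, whereas Fos crosses 0 when hSRY-ON array 1 is left out.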

How the data were processed

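RNA of whole brain from 3 hSRY-OFF and 3 hSRY-ON males was hybridized to MouseRef-8 v2.0 bead arrays, and samples were grouped by the genotype in their titles. The authors deposited, per the file headers, a mean signal intensity per probe and array on a linear scale, not normalized between arrays, and a detection p-value. Background subtraction is not given in the sources used here. TCC, an R package given in the methods without its settings, was not used here. The submitters' processing notes name limma.

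In R 4.3.3 with limma 3.58.1, intensities were corrected by normexp (offset 16), taking the negative controls' level and spread from the detection p-values, then quantile normalized and put on the log2 scale, which spreads out dim probes. The filter required detection (p-value under 0.05) on 3 or more arrays. Genotype was the only term of the two-sided fit (lmFit and eBayes). P-values were adjusted by Benjamini-Hochberg across every tested probe, and 0.05 was the threshold for a call. The precision is limited by the 3 arrays per genotype. No slide or scan date is given. The fit was tested on simulated data.

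The members, the lists and the alternatives were chosen with earlier results of these data known. List genes were read at the tested probe with the highest mean signal. Genes named are all members, every called list gene, up to 4 list genes with the highest mean signal (1 that the rule names is not reported here), and the 3 probes most like the members' mean. Egr3, Ier3, Cyr61, Socs3 and the cell type markers named one by one were chosen after their values were seen. Promoters are RefSeq windows, 1 per gene, searched on both strands. Probe sequences were not used. Plots used Python 3.11.15 and matplotlib 3.10.9.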

Additional observations from a re-analysis of the deposited data

How the results depend on the processing

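The 9 immediate early gene probes kept 0 calls with median scaling, cyclic loess, no filter on dim probes, the replicate block, array weights, 1 probe per symbol and without any single array. The count was 1 (Arc, lower in hSRY-ON) without background correction, with normexp on the signals (offset 50), with detection p under 0.01 on all 6 arrays and with a trend and robust prior. In these settings Arc had log2 fold changes of -0.35, -0.45, -0.55 and -0.55 and limma adjusted p of 0.0112, 0.0282, 0.0379 and 0.00924, and its adjusted p over all alternatives was 0.00924 to 0.193. Without 1 array the log2 fold change was -0.63 to -0.45 for Arc, -0.12 to 0.34 for Fos, -0.04 to 0.45 for Fosb (in the 3 cases where it still passed the detection filter), -0.37 to -0.02 for Junb, 0.13 to 0.38 for Dusp1, 0.05 to 0.21 for Egr1, 0.04 to 0.50 for Egr2, and -0.42 to -0.24 and 0.23 to 0.59 for the 2 Npas4 probes (ILMN_2596527 and ILMN_1251414, the latter highest without hSRY-OFF array 2). Fos turned without hSRY-ON array 1, to -0.12 (limma adjusted p 0.710), and Fosb without hSRY-OFF array 1, to -0.0361 (0.961). The cause was not tested.

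Over all probes, 311 were called (123 higher, 188 lower). The count was 1317 with background correction omitted (574 higher, 743 lower), 858 (358, 500) with normexp on the signals, 708 (297, 411) with detection p under 0.01 on all 6 arrays, 1447 (654, 793) with a trend and robust prior, 479 (184, 295) with array weights and 123 (47, 76) with no filter on dim probes. Leaving out hSRY-ON array 3 gave 417, and leaving out any other array 0 or 1, a range of 0 to 417.

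The inducible transcription factors had 1 called probe (Egr4), 2 without background correction, which did not include Egr4, 2 with normexp on the signals, 2 with the stricter detection filter, 4 with the trend and robust prior and 0 with no filter. The effectors had 0 and the late activity genes 0, and 1 each with the trend and robust prior. The upstream genes had 0, and 3 without background correction, 1 with normexp on the signals, 1 with the stricter filter and 1 with the trend and robust prior. Leaving out 1 array gave 0 to 1 for the inducible transcription factors and 0 to 5 for the 4 called glucocorticoid-induced probes.

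Same-numbered arrays of both genotypes had correlated deviations of only 0.03 to 0.04, so their numbers were not taken as pairs, although each array correlated best with its own number. With the replicate block, 0 of all probes were called (2905 at an unadjusted p under 0.05, limma), and likewise 0 inducible transcription factors and 0 glucocorticoid-induced genes.

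Signal over background limits the dim members. Fosb, Egr2 and Npas4 lay close to it, and Nr4a1 and Ier2 could not be read. With 3 arrays per genotype, the interval of Junb still holds a fall of the size seen for Arc and that of Fos a rise of that size.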
